A study of Homo sapiens with 4 samples.

Results

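The 45 genes described here act in cell division, from entry into mitosis to the final cut between daughter cells. They were chosen by symbol as genes of mitosis and of the kinetochore, and all 45 were found among the 57500 genes with deposited counts. All 45 passed the filter on low counts, which left 22511 genes in the test. RNA from SUM159 cells was sequenced in 4 libraries. SUM159 is a triple-negative breast cancer cell line that the study used as a model of metaplastic breast cancer (MpBC). The control was 1 library of parental cells. The other 3 libraries came from NOS2KO clones, numbered 1, 5 and 6 in the labels, with 1 library each. To make the clones, a double nickase plasmid against NOS2, the gene of inducible nitric oxide synthase (iNOS), was transfected. Puromycin-resistant clones were then picked by their iNOS protein and by nitrite and nitrate in an assay. The parental library is thus a population of cells and each NOS2KO library is the progeny of 1 clone, and transfection, selection, cloning and loss of NOS2 cannot be told apart. The labels do not say whether the libraries came from separate cultures.

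A dividing cell raises its mitotic transcripts in G2 and in mitosis and lowers them again in G1. Their promoters are held silent in resting cells by the DREAM complex, and are driven in G2 by MuvB with the transcription factors MYBL2 and FOXM1. Cyclin B with CDK1 starts mitosis, the kinetochore ties each chromosome to spindle microtubules, and the spindle checkpoint delays separation until all chromosomes are attached. The anaphase-promoting complex (APC/C) with CDC20 then marks securin and cyclin B for destruction, which frees separase to cut cohesin. Proliferating breast cancers carry high levels of these transcripts, and MKI67 encodes the antigen that pathologists stain as Ki-67. In RNA from a whole culture, a larger share of cells in G2 or mitosis and more RNA per dividing cell cannot be told apart.

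The counts on genes came to between 90467395 in the parental library and 122171287 in clone 1. Levels are in CPM, the counts of a gene relative to all counts of its library, with library sizes scaled by the TMM method, which corrects for a few abundant genes that take up counts. For NOS2 there were 2 counts in parental cells, 3 in clone 1, 1 in clone 6 and 18 in the library labelled clone 5, and 3 counts were taken as the floor, so at this depth its mRNA did not check the labels. The mesenchymal genes VIM and CD44 were at 1655 to 3855 and 454 to 827 CPM, and the receptor EGFR at 114 to 207. The hormone receptors ESR1 and PGR and the epithelial genes EPCAM and CDH1 were all under 1 CPM, while ERBB2 was at 48.3 to 106 CPM. Of the 4 markers of other cell types, the T cell gene CD3E and the macrophage gene CD68 stayed under 1 CPM in each library. The endothelial gene PECAM1 was at 7.06 to 16.1 CPM. PTPRC, which encodes the leukocyte antigen CD45, was at 4.45 in parental cells, 68.4 in clone 1, 41.7 in clone 6 and 105 in the library labelled clone 5. Its level was thus higher in each clone and highest in the library labelled clone 5, while the mitotic genes were highest in clone 1, and its part in the results was not tested.

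Promoter sequences are shown first for 8 of the genes, since a shared promoter element is the best known feature of genes transcribed in G2. This element is the cell cycle genes homology region (CHR), bound by MuvB, often with a CCAAT box, bound by NF-Y, upstream of it. Each line gives the 120 bases before the start of the gene in the RefSeq promoter table on GRCh38.p14, from 5′ to 3′ on the strand of the gene, and this start can differ from the gene ends given for the counts. Capitals mark a CHR hexamer or a CCAAT box in either orientation. The CHR hexamers searched were TTTGAA with its reverse complement TTCAAA, the palindrome TTTAAA and the palindrome TTCGAA, while the reverse complement of CCAAT reads ATTGG.
KIF20A, chr5:138178992-138179111, plus strand: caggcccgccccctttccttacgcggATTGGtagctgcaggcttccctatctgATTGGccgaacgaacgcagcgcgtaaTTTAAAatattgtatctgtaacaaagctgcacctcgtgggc
CDC20, chr1:43358861-43358980, plus strand: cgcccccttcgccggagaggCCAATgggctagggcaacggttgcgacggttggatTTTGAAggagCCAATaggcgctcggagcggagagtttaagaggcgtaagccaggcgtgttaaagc
CCNB1, chr5:69167030-69167149, plus strand: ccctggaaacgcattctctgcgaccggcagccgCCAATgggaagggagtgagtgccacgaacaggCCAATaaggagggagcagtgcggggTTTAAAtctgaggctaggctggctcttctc
PLK1, chr16:23678769-23678888, plus strand: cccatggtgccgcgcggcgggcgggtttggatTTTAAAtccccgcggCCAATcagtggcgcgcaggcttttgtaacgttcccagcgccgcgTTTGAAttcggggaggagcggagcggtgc
KIF11, chr10:92593010-92593129, plus strand: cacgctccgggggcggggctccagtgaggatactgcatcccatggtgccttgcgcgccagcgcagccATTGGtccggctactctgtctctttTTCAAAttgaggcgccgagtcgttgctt
PRC1, chr15:90994536-90994655, minus strand: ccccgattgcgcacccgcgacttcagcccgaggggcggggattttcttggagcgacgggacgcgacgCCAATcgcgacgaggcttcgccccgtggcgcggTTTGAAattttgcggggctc
SPC24, chr19:11155783-11155902, minus strand: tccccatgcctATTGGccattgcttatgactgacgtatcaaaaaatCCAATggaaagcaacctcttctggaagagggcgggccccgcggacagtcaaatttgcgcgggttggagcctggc
MYBL2, chr20:43666994-43667113, plus strand: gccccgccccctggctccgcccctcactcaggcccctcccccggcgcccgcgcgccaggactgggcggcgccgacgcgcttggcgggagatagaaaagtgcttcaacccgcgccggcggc
KIF20A, CDC20, KIF11, PRC1, SPC24 and MYBL2 were over 1.5-fold above the parental level in every clone, and CCNB1 and PLK1 in clone 1 only. MYBL2 encodes a partner of MuvB itself. The first 6 promoters printed carried both elements in this window, SPC24 carried CCAAT boxes only, and MYBL2 carried neither. Both elements were thus found among the genes that were high in every clone and among those that were high in clone 1 only.

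The search covered all promoters of the table, each with 250 bases before and 50 after a start, on both strands. A hexamer and a CCAAT box can share a base at their ends. Of the 45 genes, 38 had an entry, with 48 promoters in all. A CHR hexamer was present in 38 of the 48 promoters (79.2%), against 25.1% of all 35116 promoters, and a CCAAT box in 36 (75%), against 34.6%. Within the 100 bases around the start, a hexamer was present in 31 promoters (64.6%), against 8.01% of all promoters. A CCAAT box that began 15 to 50 bases upstream of a hexamer was found in 21 promoters (43.8%), against 1.96%, although this spacing was chosen after the positions had been seen. Per gene, a hexamer near the start was found for 14 of the 20 matched genes that were over 1.5 times the parental level in every clone, and for 15 of the 18 others. The element therefore did not separate the genes that were high in every clone from the rest. AURKA, BUB3, FOXM1, UBE2C, TTK, BIRC5 and TPX2 were not in the table.

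The question of the comparison was which transcripts differ between parental SUM159 cells and the NOS2KO clones. In clone 1, all 45 mitotic genes were above the parental level by over 1.5-fold, with a median of 5.55-fold and a range from 1.75-fold for CDC25B to 20.3-fold for KIF20A. The other clones were closer to the parental library, with medians of 1.76-fold in clone 6 and 1.54-fold in the library labelled clone 5. No gene was lower in every clone, and 37 of 45 were higher in every clone. The summed level of the 45 genes was 2211 CPM in parental cells, 11632 in clone 1, 3537 in clone 6 and 3099 in the library labelled clone 5. The share of the scaled library that went to these genes was thus 0.221% in parental cells and 1.16% in clone 1.

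These counts are read against all 22511 genes tested. Over 1.5-fold higher than parental were 45 of 45 mitotic genes in clone 1, where 26.6% of all genes were, 27 in clone 6, where 29.3% were, and 23 in the library labelled clone 5, where 30.9% were. At 2-fold the counts were 44, 17 and 12 of 45, beside 17.1%, 19.3% and 21.3% of all genes. At 2-fold, the share in the library labelled clone 5 was therefore close to that of all genes tested, genes of low level included. Higher in every clone were 28.6% of all genes, and lower in every clone 30.5%. Over 1.5-fold higher in every clone were 22 of 45 mitotic genes, beside 13.2% of all genes. The median log2 ratio of the mitotic genes was 2.47 in clone 1, 0.82 in clone 6 and 0.62 in the library labelled clone 5, and that of all genes was -0.07, 0.00 and 0.03. Genes that reached 10 CPM in any library were also used as a background, a choice made after the values were seen. Of 10709 such genes 353 (3.3%) were over 4-fold higher in clone 1, beside 38 of the 45 mitotic genes (84.4%). Over 2-fold higher were 1184 of the 10709 in clone 6 and 1140 in the library labelled clone 5. Against this background, the 17 and 12 of 45 mitotic genes at 2-fold were larger shares. A gene could pass the limit of 10 CPM through 1 clone alone, as CDC25C did through clone 1. All the ratios share the parental library, so an unusual value there would move the 3 ratios of a gene together.

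**Figure D1:**
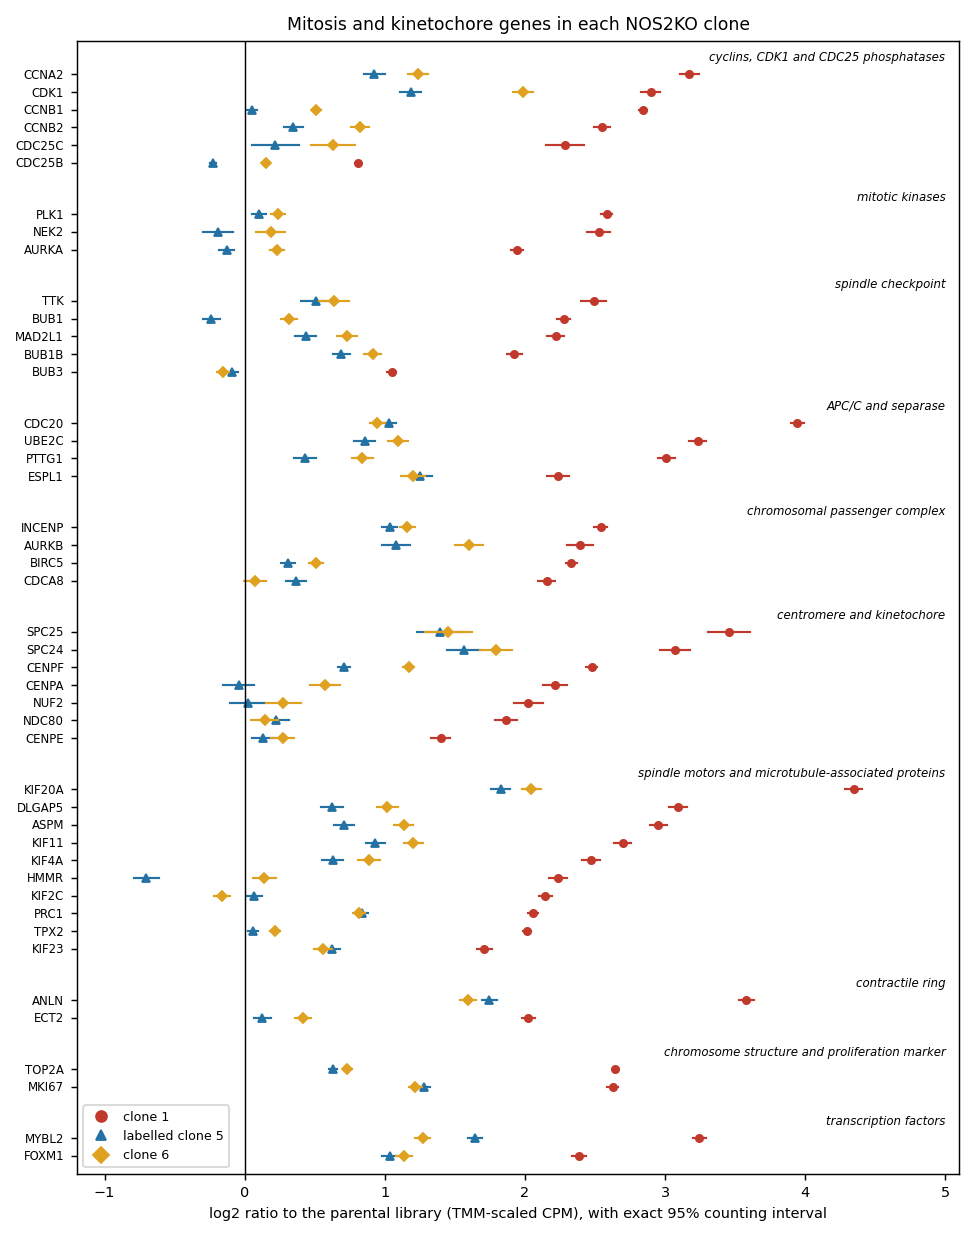
Log2 ratio of each of the 45 genes to the parental library, by role, for clone 1 (circles), the library labelled clone 5 (triangles) and clone 6 (diamonds), with bars for the exact 95% interval of the counting error. Clone 1 lies to the right of both other clones for every gene, and the library labelled clone 5 lies below 0 for 7 genes and clone 6 for 2.

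**Figure D2:**
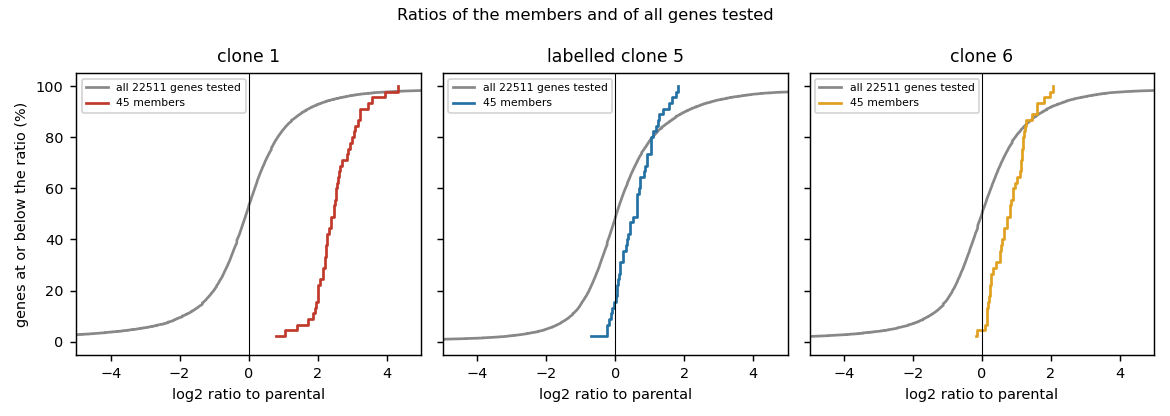
Percentage of genes at or below each log2 ratio to the parental library, for the 45 mitotic genes (coloured steps) and for all 22511 genes tested (grey), with 1 panel per clone. In clone 1 the lowest mitotic gene is at 0.81. The 45 genes are among the 22511, so in each panel their curve cannot reach its top at a higher ratio than that of all genes.

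CDK1, the kinase that drives entry into mitosis, and its cyclins were all higher in each clone. CDK1 (ENSG00000170312, chromosome 10 of GRCh38 from 60778331 to 60794852) was at 22.9 CPM in parental cells, 170.3 in clone 1, 90.5 in clone 6 and 51.9 in the library labelled clone 5. All clones lay above the parental library, with 7.45, 3.96 and 2.27 times its level in clone 1, clone 6 and the library labelled clone 5, the order in which the ratios of the clones are given from here on, and the mean of the clones was 104 ± 60.3 CPM (SD, n = 3 clones). CCNA2, the cyclin of S phase and G2, was at 22.7 CPM in parental cells, 205 in clone 1, 53.5 in clone 6 and 43.1 in the library labelled clone 5. This was 9.02, 2.36 and 1.90 times the parental level. CCNB1, the main mitotic cyclin, was at 144 CPM in parental cells, 1036 in clone 1, 206 in clone 6 and 149.7 in the library labelled clone 5. Clone 1 stood apart, while the library labelled clone 5 differed from parental by a log2 ratio of 0.05 (interval of the counting error 0.02 to 0.08). The second B-type cyclin, CCNB2, gave 5.86, 1.77 and 1.27 times the parental level of 33.8 CPM.

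Of the CDC25 phosphatases, which take inhibitory phosphates off CDK1, CDC25B had the smallest ratio of the 45 genes in clone 1. CDC25B, the most abundant of the 45 genes per length in the parental library, was at 366 CPM in parental cells, 640.0 in clone 1, 406 in clone 6 and 312 in the library labelled clone 5. The parental level lay between those of the clones, so the groups overlapped. CDC25C was at 5.70 CPM in parental cells, 27.7 in clone 1, 8.80 in clone 6 and 6.62 in the library labelled clone 5, above parental in each clone, and 9.62% of its exon bases are shared with FAM53C on the opposite strand.

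The 3 kinases of centrosomes and spindle poles were over 1.5-fold higher in clone 1 only. PLK1, which acts on centrosomes, kinetochores and cytokinesis, was at 63.2 CPM in parental cells, 379 in clone 1, 74.7 in clone 6 and 67.8 in the library labelled clone 5. AURKA, which builds the spindle poles, was at 63.6 CPM in parental cells, 244 in clone 1, 74.5 in clone 6 and 58.1 in the library labelled clone 5. For NEK2, which parts the centrosomes, the levels were 15.7 CPM in parental cells and 90.6 in clone 1. In the library labelled clone 5, NEK2, AURKA and PLK1 were at 0.875, 0.914 and 1.07 times the parental level, and in clone 6 at 1.14, 1.17 and 1.18 times. The median log2 ratio was 0.23 in clone 6 and -0.13 in the library labelled clone 5.

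BUB1, BUB1B, BUB3, MAD2L1 and TTK hold back the APC/C while a kinetochore is unattached. BUB1B, the kinase-like checkpoint protein BubR1, was at 37.8 CPM in parental cells, 144 in clone 1, 71.2 in clone 6 and 61.04 in the library labelled clone 5, so all clones were above parental. BUB3, the WD-repeat protein that brings BUB1 and BUB1B to kinetochores, had the highest level per length of the 5 in the parental library and was at 109 CPM in parental cells, 225 in clone 1, 97.4 in clone 6 and 102 in the library labelled clone 5. BUB3 was thus 2.07 times the parental level in clone 1 and below parental in both other clones. BUB1 was 4.85 times parental in clone 1, but 0.848 times in the library labelled clone 5 and 1.24 times in clone 6. MAD2L1, which binds CDC20, and TTK, the kinase at the head of the checkpoint, were above parental in each clone, at 4.66, 1.66 and 1.35 times and 5.62, 1.55 and 1.42 times the parental level in clone 1, clone 6 and the library labelled clone 5.

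The regulators of anaphase were above parental in every clone, and CDC20 had the second largest ratio of the 45 genes in clone 1. CDC20 (ENSG00000117399, chromosome 1 of GRCh38 from 43358955 to 43363203), which activates the APC/C, was at 46.95 CPM in parental cells, 722 in clone 1, 90.4 in clone 6 and 95.6 in the library labelled clone 5. Its log2 ratio in clone 1 was 3.94, or 15.4-fold, against 1.92-fold in clone 6 and 2.04-fold in the library labelled clone 5. Its pseudogene CDC20P1 had at most 3.35% as many counts as CDC20 in a library. UBE2C, the ubiquitin-conjugating enzyme of the APC/C, was at 25.3 CPM in parental cells, 238 in clone 1, 53.9 in clone 6 and 45.8 in the library labelled clone 5. PTTG1, the securin that holds separase, was 8.05, 1.79 and 1.35 times the parental level. ESPL1 (ENSG00000135476, chromosome 12 of GRCh38 from 53268299 to 53293643), which encodes separase, was at 16.6 CPM in parental cells, 78.2 in clone 1, 38.2 in clone 6 and 39.6 in the library labelled clone 5. For ESPL1 the clones were closer to each other than for the rest of this group, at 4.70, 2.30 and 2.38 times the parental level.

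AURKB is the kinase of the chromosomal passenger complex, which corrects wrong attachments of chromosomes, and INCENP, BIRC5 (survivin) and CDCA8 (borealin) hold it in place. AURKB (ENSG00000178999, chromosome 17 of GRCh38 from 8204733 to 8210600) was at 12.1 CPM in parental cells, 63.5 in clone 1, 36.7 in clone 6 and 25.6 in the library labelled clone 5. INCENP, its scaffold, was at 43.9 CPM in parental cells, 255 in clone 1, 97.9 in clone 6 and 89.9 in the library labelled clone 5. Both genes were over 2-fold above parental in each clone. BIRC5, the most abundant of the 4 per length in the parental library, was at 63.1 CPM in parental cells, 317 in clone 1, 89.8 in clone 6 and 78.2 in the library labelled clone 5. CDCA8 was 4.45 times parental in clone 1 and 1.29 times in the library labelled clone 5, while in clone 6 its log2 ratio of 0.07 had an interval that held 0.

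SPC24 and SPC25, the pair of NDC80 complex subunits next to the chromosome, were higher in each clone, while NDC80 and NUF2, the pair that binds the microtubule, were over 1.5-fold higher in clone 1 only. SPC24 (ENSG00000161888, chromosome 19 of GRCh38 from 11131520 to 11155808) was at 8.51 CPM in parental cells, 71.3 in clone 1, 29.5 in clone 6 and 25.1 in the library labelled clone 5. SPC25 was at 4.28 CPM in parental cells, 46.9 in clone 1, 11.7 in clone 6 and 11.2 in the library labelled clone 5. The ratios were 8.38, 3.46 and 2.95 times parental for SPC24 and 10.95, 2.73 and 2.63 times for SPC25. NDC80 was at 18.2 CPM in parental cells, 66.4 in clone 1, 20.1 in clone 6 and 21.2 in the library labelled clone 5. NUF2 was 4.07 times parental in clone 1, and its log2 ratio in the library labelled clone 5 was 0.02 (interval of the counting error -0.11 to 0.15). In clone 6 and in the library labelled clone 5, SPC24 and SPC25 were thus at least 2.63-fold above parental, and NDC80 and NUF2 at most 1.21-fold.

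CENPF, a large protein of the outer kinetochore, was at 74.6 CPM in parental cells, 415 in clone 1, 168 in clone 6 and 122 in the library labelled clone 5. CENPA, the histone H3 variant that marks centromeres, was at 13.5 CPM in parental cells, 62.7 in clone 1, 20.1 in clone 6 and 13.1 in the library labelled clone 5. The interval of its log2 ratio in the library labelled clone 5, -0.15 to 0.07, held 0. CENPE, the kinesin that carries chromosomes to the middle of the spindle, had the third smallest ratio in clone 1, 2.64-fold, with 1.21-fold in clone 6 and 1.10-fold in the library labelled clone 5.

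**Figure D3:**
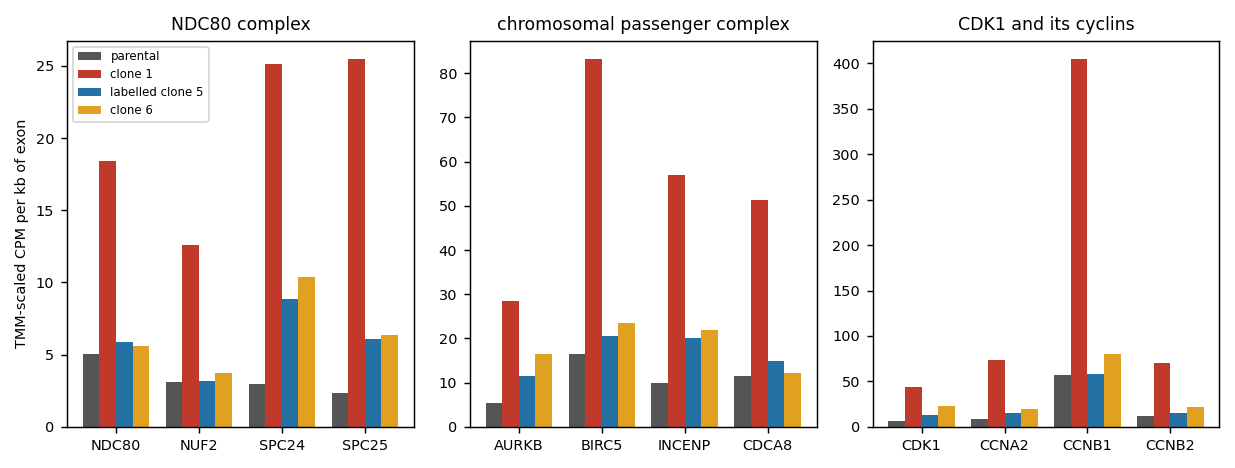
Level per length (TMM-scaled CPM per kilobase of exon, linear axes from 0) of the genes of the NDC80 complex, the chromosomal passenger complex and CDK1 with its cyclins, with 1 bar per library and no error bar since each bar is 1 library. In the parental library NDC80 stands above SPC24 and SPC25, and in clone 1 SPC24 and SPC25 stand above NDC80.

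Levels per kilobase of exon allow genes of the same complex to be set side by side, with the annotated exon length as the divisor. In the NDC80 complex, whose subunits are present in equal numbers in the protein, SPC25 was at 2.33, 25.5, 6.36 and 6.11 CPM per kilobase in parental cells, clone 1, clone 6 and the library labelled clone 5. SPC24 was at 2.997, 25.1, 10.4 and 8.85 CPM per kilobase in the same order, and NDC80 at 5.06, 18.4, 5.58 and 5.90 CPM per kilobase. The order of the subunits therefore differed, with NDC80 highest in parental cells, SPC25 highest in clone 1 and SPC24 highest in the other clones. The highest subunit was between 2.02 and 2.82 times the lowest in each library. In the chromosomal passenger complex BIRC5 was highest per length in each library, and the highest gene was 3.06 times the lowest in parental cells, 2.93 times in clone 1, 1.94 times in clone 6 and 1.79 times in the library labelled clone 5. Among CDK1 and its cyclins, CCNB1 was highest in each library, at 56.5, 405, 80.5 and 58.5 CPM per kilobase, while CDK1 was at 5.82, 43.3, 23.02 and 13.2 CPM per kilobase.

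KIF20A, the kinesin that carries the chromosomal passenger complex to the midzone, had the largest ratio of the 45 genes in each clone. KIF20A (ENSG00000112984, chromosome 5 of GRCh38 from 138178719 to 138187715) was at 24.3 CPM in parental cells, 494 in clone 1, 100.3 in clone 6 and 86.1 in the library labelled clone 5. These were 20.3, 4.13 and 3.55 times the parental level, and the mean of the clones was 227 ± 231 CPM (SD, n = 3 clones). Of its exon bases, 3.33% are shared with BRD8 and 1.72% with CDC23, both on the opposite strand. KIF11, the motor that pushes spindle poles apart, was at 27.3 CPM in parental cells, 177 in clone 1, 62.8 in clone 6 and 52.04 in the library labelled clone 5. KIF4A, a motor on chromosome arms, was at 22.9 CPM in parental cells, 127 in clone 1, 42.3 in clone 6 and 35.4 in the library labelled clone 5. In all 3 of these motors the parental library was the lowest.

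The proteins of spindle poles and bundles differed more among themselves. ASPM, a spindle pole protein known from primary microcephaly, was at 27.2 CPM in parental cells, 211 in clone 1, 59.8 in clone 6 and 44.4 in the library labelled clone 5. DLGAP5, which stabilises fibres at kinetochores, was at 23.1 CPM in parental cells, 196 in clone 1, 46.7 in clone 6 and 35.5 in the library labelled clone 5. PRC1, which bundles the antiparallel microtubules of the midzone, was at 73.3 CPM in parental cells, 305 in clone 1, 129 in clone 6 and 131 in the library labelled clone 5. ASPM, DLGAP5 and PRC1 were thus over 1.5-fold above parental in each clone. TPX2, an activator of AURKA and the most abundant gene of this group per length in the parental library, was at 133 CPM in parental cells, 538 in clone 1, 155 in clone 6 and 139 in the library labelled clone 5. HMMR, which binds TPX2 at the poles, was at 25.6 CPM in parental cells, 121 in clone 1, 28.2 in clone 6 and 15.8 in the library labelled clone 5. HMMR was thus 4.71 times parental in clone 1 and 0.615 times in the library labelled clone 5, the lowest ratio of the 45 genes in any clone. KIF2C, which takes apart microtubule ends, was 4.42, 0.893 and 1.05 times the parental level, and KIF23, a motor of the midzone, 3.27, 1.47 and 1.54 times.

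Genes at the end of division and the transcription factors of G2 were higher in each clone. ANLN, which encodes the ring protein anillin, was at 37.1 CPM in parental cells, 444 in clone 1, 112 in clone 6 and 125 in the library labelled clone 5. ECT2, which activates RhoA at the ring, was 4.07, 1.33 and 1.09 times the parental level. The proliferation marker MKI67 was at 59.8 CPM in parental cells, 369 in clone 1, 139 in clone 6 and 145 in the library labelled clone 5, or 6.17, 2.32 and 2.42 times parental. TOP2A, the topoisomerase that untangles sister chromatids, was at 152 CPM in parental cells, 948 in clone 1, 252 in clone 6 and 235 in the library labelled clone 5. FOXM1 was at 39.98 CPM in parental cells, 209 in clone 1, 87.9 in clone 6 and 81.9 in the library labelled clone 5, and 15.9% of its exon bases are shared with ITFG2 on the opposite strand. ITFG2 itself had 1396 counts in parental cells, 1276 in clone 1, 2062 in clone 6 and 1854 in the library labelled clone 5, against 3614 to 23924 of FOXM1. MYBL2 was at 41.8 CPM in parental cells, 396 in clone 1, 101 in clone 6 and 130.4 in the library labelled clone 5. The 4 genes ANLN, MKI67, FOXM1 and MYBL2 were over 2-fold above parental in every clone.

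**Figure D4:**
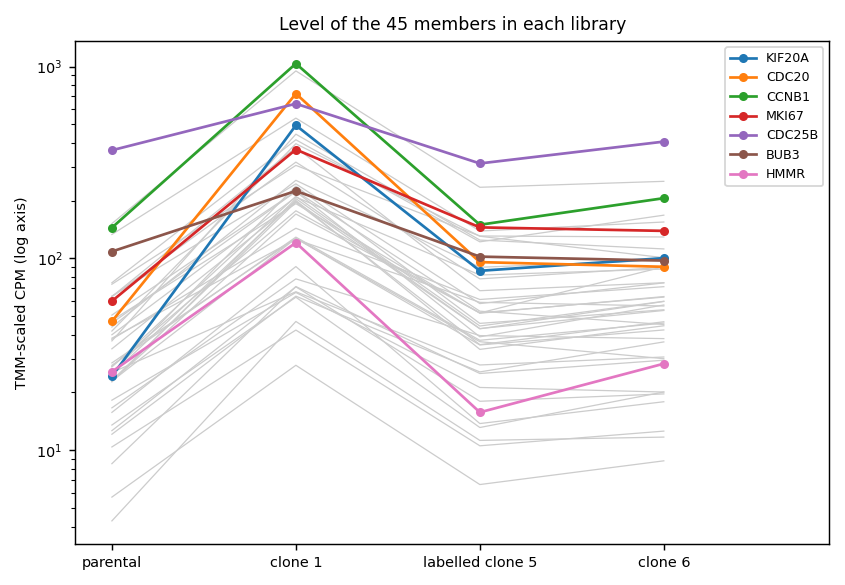
Level of the 45 genes in each of the 4 libraries (TMM-scaled CPM, logarithmic axis), with each line joining the values of 1 gene and 7 genes in colour. Every line peaks at clone 1, and CDC25B, BUB3 and HMMR are lower in the library labelled clone 5 than in the parental library.

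By the median of the 45 genes, clone 1 differed from the other clones by more than these did from the parental library. Each of the 45 genes was over 1.5-fold higher in clone 1 than in both other clones, beside 14.0% of all genes tested. This count was chosen after the values were seen. The median log2 ratio of clone 1 was 1.95 to the library labelled clone 5 and 1.73 to clone 6, and for each gene the counting intervals of both ratios lay above 0. The ratios ran from 1.97-fold for ESPL1 to 7.66-fold for HMMR against the library labelled clone 5. Against clone 6 they ran from 1.58-fold for CDC25B to 7.99-fold for CDC20. AURKB and CDK1 were nearest to clone 1 in clone 6 after CDC25B, at ratios of 1.73 and 1.88. Clone 1 also had the most counts and, at 0.939, the lowest TMM scaling factor of the 4 libraries. Without any TMM factor, 38 of the 45 genes were higher than parental in every clone. That count does not cover the ratios of clone 1 to the other clones, which were taken with the TMM factors only. CDC25B, at 1.58-fold against clone 6, lay near the 1.5-fold limit.

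The library labelled clone 5 and clone 6 were close to each other. The median log2 ratio of clone 6 to the library labelled clone 5 was 0.23. By counting error alone, 33 of the 45 genes were higher in clone 6, 8 were higher in the library labelled clone 5 and 4 had an interval that held 0. The largest ratios were those of HMMR, 1.79-fold, and CDK1, 1.74-fold, both higher in clone 6. In the other direction MYBL2 was 0.773 times and CDCA8 0.816 times as high in clone 6 as in the library labelled clone 5. With 1 library per clone, the spread between cultures of a clone is not known, so these intervals understate the error.

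In the test of the 3 clones against the parental library, no mitotic gene passed adjustment. After Benjamini-Hochberg adjustment of the edgeR p-values over 22511 genes, none of the 45 was under 0.05, where 0.00444% of all genes were. The study's own criterion was p under 0.05 from a Wald test, with a log2 fold change above 1 or below -1. It was given for a plot of genes regulated by the AP-1 transcription factors, without saying whether p was adjusted. Here the criterion was taken with the unadjusted p, over all genes. With the edgeR p in place of the Wald p, it was met by 4 of the 45 genes, all higher in the clones. Of all genes, 4.24% met it as higher and 5.34% as lower. The 4 were SPC24, CDK1, AURKB and ESPL1. For SPC24 the log2 fold change was 2.30 (standard error 0.68, adjusted p = 0.401 by edgeR), and the gene was higher in 3 of 3 clones. For CDK1 it was 2.19 (standard error 0.69, edgeR adjusted p = 0.413). For AURKB the log2 fold change was 1.79 (standard error 0.56, edgeR adjusted p = 0.409), and for ESPL1 it was 1.64 (standard error 0.52, edgeR adjusted p = 0.404). Both were higher in 3 of 3 clones, as was CDK1. KIF20A had the largest fold change, 3.22 on the log2 scale, but a standard error of 1.12 (edgeR adjusted p = 0.466). The spread came from the 3 clones alone and was taken to be that of the parental cells too. The smallest p of an exact permutation test with 1 library against 3 is 0.25.

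DESeq2's Wald test, the kind of test that the study names, called more genes. It gave an adjusted p under 0.05 for SPC24 and KIF20A, 2 of the 45 genes, beside 3.26% of 17273 genes as higher, and 18 of the 45 met the study's criterion, beside 7.07% of all genes. The adjusted p by DESeq2 was 0.0419 for SPC24 and 0.0439 for KIF20A. The highest adjusted p over the alternatives, from edgeR, was 0.739 for each of the genes. The median log2 fold change of the 45 genes was 1.57, beside 0.10 for all genes tested. Without clone 1 it was 0.65, so clone 1 moved it by more than 1.5 times, and 13 genes then met the criterion as higher, beside 8.18% of all genes in that fit.

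Other genes of the cell cycle were read from lists of the same roles. Among 32 other genes of kinetochore and centromere the median log2 ratio was 1.16 in clone 1, 0.31 in clone 6 and 0.34 in the library labelled clone 5, and 3 met the criterion as higher and none as lower. These were CENPI, ZWINT and CENPO. Of all genes tested, 4.24% met the criterion as higher and 5.34% as lower. CENPI, of the inner kinetochore, was at 2.09 CPM in parental cells, 39.3 in clone 1, 10.4 in clone 6 and 9.49 in the library labelled clone 5. ZWINT, of the outer kinetochore, was at 16.03 CPM in parental cells, 112 in clone 1, 48.3 in clone 6 and 56.96 in the library labelled clone 5. CENPO, a partner of CENPI in the inner kinetochore, was at 14.04 CPM in parental cells, 43.5 in clone 1, 25.9 in clone 6 and 28.3 in the library labelled clone 5. Among 23 other genes of spindle and cytokinesis the medians were 2.04, 0.55 and 0.39, and 2 met the criterion as higher. CIT, the kinase of the midbody, was 7.12, 2.78 and 3.36 times the parental level in clone 1, clone 6 and the library labelled clone 5, and KIFC1, a motor that gathers spindle poles, 7.14, 2.38 and 3.08 times.

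Other lists covered the APC/C, condensin and cohesin, MuvB with DREAM, and entry into mitosis. The 17 subunits of the APC/C had median log2 ratios of 0.30 in clone 1, -0.12 in clone 6 and -0.18 in the library labelled clone 5, and 1, ANAPC16, met the criterion as lower, at 114 CPM in parental cells, 61.2 in clone 1, 56.8 in clone 6 and 48.6 in the library labelled clone 5. The 20 genes of condensin and cohesin had medians of 0.89, 0.14 and 0.06, and none met the criterion by edgeR and 2 by DESeq2, both as higher. By DESeq2, 7.07% of all genes tested met it as higher. The 11 subunits of MuvB and DREAM had medians of 0.14, -0.25 and -0.43. Of these E2F5, a repressor of the E2F family, met the criterion as lower, at 30.1 CPM in parental cells, 5.90 in clone 1, 5.72 in clone 6 and 4.92 in the library labelled clone 5. Among 13 other regulators of entry into mitosis the medians were 1.15, 0.32 and 0.41, and none met the criterion by edgeR and 3 by DESeq2, all as higher. Over these 116 genes together, 5 met it as higher and 2 as lower by edgeR, beside 4.24% and 5.34% of all genes tested. The count as higher was thus near the share of all genes. Over 1.5-fold higher in clone 1 than in both other clones were 14.0% of all genes tested. By list they were 21 of the 23 genes of spindle and cytokinesis, 11 of the 13 regulators of entry and 22 of the 32 genes of kinetochore and centromere. In the remaining lists they were 13 of the 20 of condensin and cohesin, 4 of the 17 of the APC/C and 2 of the 11 of MuvB and DREAM.

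Genes of S phase and G1 were set beside the mitotic genes. Among 42 genes of DNA replication the median log2 ratio was 0.92 in clone 1, 0.36 in clone 6 and 0.40 in the library labelled clone 5, and 10 met the criterion as higher and 1 as lower. Of all genes tested, 4.24% met it as higher and 5.34% as lower. TYMS, which makes thymidylate, was at 31.7 CPM in parental cells, 280.0 in clone 1, 135 in clone 6 and 135 in the library labelled clone 5. RRM2, the small subunit of ribonucleotide reductase, and GINS2, of the replicative helicase, were 7.14, 2.41 and 3.42 times and 4.64, 3.29 and 3.57 times the parental level in clone 1, clone 6 and the library labelled clone 5. Of the 42 genes, 6 were over 1.5-fold higher in clone 1 than in both other clones, near the share of 14.0% of all genes tested. That count was chosen after the values were seen, and the difference between the lists was not tested. Among 18 G1 cyclins and CDK inhibitors the medians were -0.23, -0.07 and 0.19, and 4 met the criterion as higher and 3 as lower. The inhibitor CDKN2C (p18) was at 21.02 CPM in parental cells, 278 in clone 1, 103 in clone 6 and 149 in the library labelled clone 5. The inhibitors CDKN2A and CDKN2B had 107 and 50 counts in the parental library and at most 19 and 13 in a clone.

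**Figure D5:**
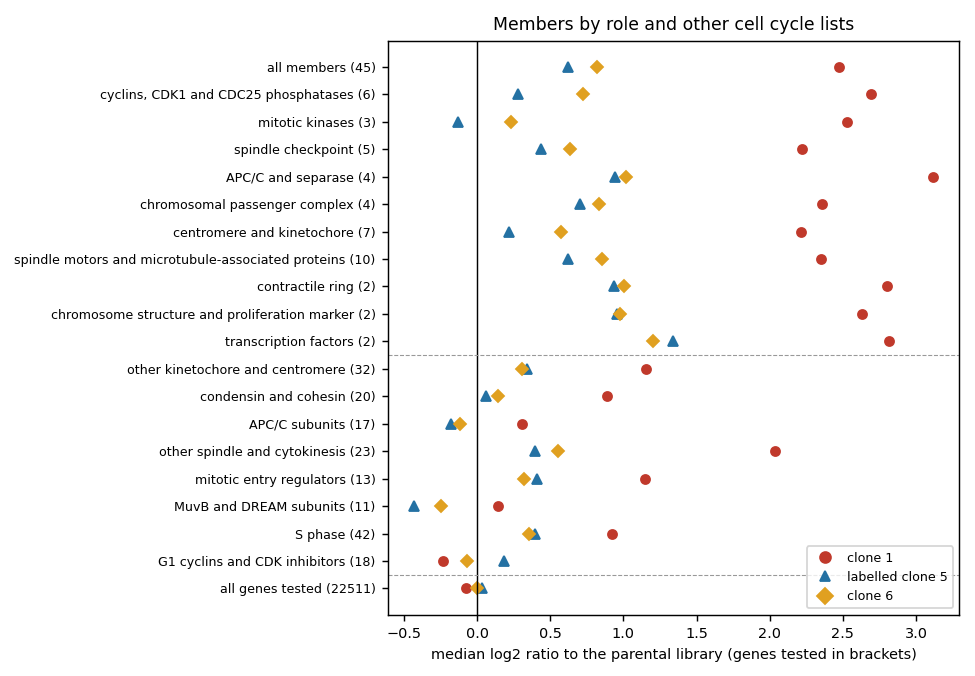
Median log2 ratio to the parental library for the 45 mitotic genes, for each of their roles, for other cell cycle lists and for all genes tested, with the number of genes tested in brackets and the symbols of the 3 clones as in the plot of single genes. Clone 1 is right of both other clones in every role, and the lists of APC/C subunits, MuvB and DREAM subunits and G1 regulators have medians between -0.43 and 0.30.

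Some counts could hold reads of a neighbour or a copy, because the strand setting of the counting is not given in the sources used here. Apart from those named above, for example, CCNA2 shares 9.08% of its exon bases with EXOSC9 and PLK1 11.6% with the antisense gene AC008870.3, both on the opposite strand. BUB1B shares 10.2% with the read-through gene BUB1B-PAK6 on the same strand, which had 0 counts in each library. AC008870.3 had at most 9 counts. Besides CDC20P1, the copies looked up for 10 other mitotic genes had at most 0.917% as many counts as the gene itself in any library.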

How the data were processed

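RNA-sequencing of 1 library of parental SUM159 cells and 1 library from each of 3 NOS2KO clones was analysed. Per the labels, mRNA was enriched with oligo(dT), and paired ends were read from libraries of the NEBNext Ultra II type. The submitters' processing notes name bcl2fastq 2.17, Trimmomatic 0.36, STAR 2.5.2b, featureCounts, Subread 1.5.2 and DESeq2 with the build GRCh38. Their settings, the annotation release and the use of strand are not given in the sources used here, so reads on genes that overlap may be split. What the authors deposited are the counts for each gene, with no normalization.

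Symbols were taken from GENCODE release 29 for 56898 of 57500 genes, of which 54784 matched it in start and end, all 45 members among them. The test was that of edgeR 4.0.16 in R 4.3.3 (filterByExpr by group, TMM, estimateDisp, glmQLFit and glmQLFTest), with Benjamini-Hochberg adjustment over 22511 genes. The common dispersion was 0.319, with 2 residual and 2.75 prior degrees of freedom. DESeq2 1.42.0 was the alternative tool. The fit and the intervals were tested on simulated data.

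Ratios of single libraries carry a 95% interval (Clopper-Pearson, exact) that covers counting error only. A floor of 3 counts was 0.0246 to 0.0332 CPM. Python 3.11.15 with pandas 2.3.3, scipy 1.17.1, numpy 2.4.6 and matplotlib 3.10.9 served for the rest. Promoters came from a RefSeq table on GRCh38.p14.

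The members, their roles, the other lists and the rule for naming genes were chosen with earlier results of these data known. The text names each member that met the criterion or was over 1.5-fold higher in every clone, the member with the highest mean level in each role, and up to 3 genes of each other list with the largest fold changes that met the criterion. The remaining members were added after their values were seen. Alternatives were scaling by upper quartile, RLE or library size alone, a minimum of 1 CPM in 2 libraries or no filter, robust estimation, the bias-adjusted quasi-likelihood method, DESeq2, each clone left out, each clone alone, a 2-fold limit and a narrower promoter window.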

Additional observations from a re-analysis of the deposited data

How the results depend on the processing

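The median log2 fold change of the 45 genes lay between 1.52 and 1.64 under the other scalings, filters and tests, and between 0.65 (without clone 1) and 1.86 (without the library labelled clone 5) when 1 clone was left out. The number of genes with an adjusted p under 0.05 was 0 in each edgeR fit and 2 with DESeq2's Wald test. The number that met the study's criterion was 4 or 5 under the other scalings, a minimum of 1 CPM, robust estimation and the bias-adjusted method, but 12 with no filter and 18 with DESeq2, where 3.47% and 7.07% of all genes met it as higher. When a clone was left out it lay between 6 and 16, with 13 without clone 1, 16 without the library labelled clone 5 and 6 without clone 6, beside 8.18%, 3.2% and 2.89% of all genes as higher. With only 2 clones the spread rests on 1 residual degree of freedom. The cause of these shifts was not tested. Without clone 6, CDK1 and AURKB no longer met the criterion.

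No gene was lower than parental in every clone under any scaling or filter, and 37 to 39 were higher in every clone. With clones left out, 0 to 1 were lower in every remaining clone, the 1 being BUB3 without clone 1. In single clones 2 genes were lower in clone 6 and 7 in the library labelled clone 5. A limit of 2-fold in place of 1.5-fold left 17 genes in clone 6 and 12 in the library labelled clone 5. The sign of the log2 fold change turned without clone 1 for CDC25B (-0.025), BUB3 (-0.12), KIF2C (-0.042) and HMMR (-0.22), and with another clone left out it reached 0.53 for CDC25B, 0.59 for BUB3, 1.45 for KIF2C and 1.55 for HMMR. The other 41 genes kept a positive sign under every scaling, filter, test and clone left out. Each gene had at least 387 counts in every library, and the intervals cover the counting error of 1 library per clone only.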
